A study of Homo sapiens with 8 samples.

Results

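The mRNAs of 9 genes of the p53 pathway and of cell cycle inhibition were followed in m6A-seq peak lists of Mel624 cells, an established human melanoma line: MDM2, MDM4, CDKN1A, CDKN1B, CDKN1C, CDKN2A, CDKN2B, GADD45A and GADD45B. The genes were chosen by name, with earlier results of these data known, and every peak listed under these symbols was taken. Of the 9 genes, 7 had peaks in both lists, and CDKN1C and CDKN2A had none in either list. These genes held 11 of the 18551 peaks of the shFTO list and 13 of the 19072 peaks of the shNC list, which together cover 10076 genes.

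The shFTO cells carried a short hairpin RNA against FTO, an enzyme that removes methyl groups from N6-methyladenosine (m6A) in RNA, and the shNC cells carried a negative control hairpin. For its hairpin cells the paper describes lentiviral infection with Polybrene and selection with puromycin. The sample titles name no treatment beyond the hairpin. There were 2 replicates of each group, sequenced both as m6A-IP and as input (8 libraries). A peak marks a part of an mRNA where the antibody pull-down is enriched over the input. Its log2 enrichment score divides the IP reads of the peak by the median window of the same mRNA and then by the same quotient of the input, so that it compares a peak with the remainder of its mRNA and is not an expression level. The lists give a score for each replicate but no read numbers, and sequencing depth is therefore unknown. The sources do not say whether replicates were separate cultures, and p-values reflect no more than the variation among these libraries. A gene can be missing from a list because its windows missed the authors' thresholds or because its mRNA was too low to be read, and these cases cannot be told apart here. The 7 melanocyte lineage markers looked up (such as MITF) had peaks in both lists.

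The p53 protein is a transcription factor that is held at low levels by MDM2, a ubiquitin ligase that marks it for degradation, and by MDM4, a relative of MDM2 that binds p53 and masks its activation domain. When DNA is damaged, p53 is freed and switches on genes that stop the cell cycle, among them CDKN1A, which encodes the cyclin-dependent kinase inhibitor p21, and GADD45A. CDKN1B and CDKN1C encode p27 and p57, which inhibit the same kinases as p21, while CDKN2A and CDKN2B encode p16 and p15, which inhibit CDK4 and CDK6. CDKN2A also encodes ARF, an inhibitor of MDM2, and is one of the genes most often lost in melanoma. m6A on mRNA is placed mainly at a short motif of which GGACU is a common form, and reader proteins that bind m6A affect the decay and translation of the mRNA.

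The deposited lists mark 6 GGACU sites within the peaks of 4 of these mRNAs, and they are shown here since they are the places at which the peaks can be tied to the genome. Each is given as 25 bases of the mRNA strand, written with T for U, with GGACT in capitals, from GENCODE version 44 transcripts on GRCh38, and is named by its position on the authors' isoform.
MDM2 4207: tcaagaaaaaGGACTacggaaagtt
MDM2 4020: aaggttaggtGGACTaaagcattct
CDKN1B 702: agttaacccgGGACTtggagaagca
CDKN2B 837: gtctgcccgtGGACTtggccgagga
CDKN2B 897: cagccacgggGGACTgacgccaggt
GADD45B 1196: ccacactttgGGACTtgggagctgg

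MDM2 4207 lies at chr12:68842243-68842267 on the plus strand and MDM2 4020 at chr12:68842056-68842080. On ENST00000258149.11, both are in the last of the 11 exons, in the 3′UTR, with the motif 2404 and 2217 nt after the stop codon. The other coding GENCODE transcripts of MDM2 do not hold these sites in an exon. MDM2 4207 was in peaks of both lists, and the distance of the motif from the peak centre was 14 nt in shFTO and 6 nt in shNC. MDM2 4020 was in a peak of the shFTO list only, since the shNC peak at this place ended at position 3998. CDKN1B 702 lies at chr12:12717958-12717982 on the plus strand, in exon 1 of the 2 exons of the transcript used, 129 nt into the coding sequence, and was in a peak of the shNC list only. GADD45B 1196 lies at chr19:2478067-2478091 on the plus strand, in the 3′UTR in exon 4 of 4 of ENST00000215631.9, 476 nt after the stop codon. The other coding GENCODE transcripts of GADD45B do not hold it in an exon. This site was listed in both groups, although the shNC peak ended at position 1197, inside the motif.

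CDKN2B 837 and CDKN2B 897 lie on the minus strand at chr9:22006039-22006063 and chr9:22005979-22006003, in exon 2 of 2, and both were within 1 peak of each list. The authors' isoform, NM_078487, places them in the 3′UTR. On ENST00000380142.5, the GENCODE transcript used to place them, they also lie in the 3′UTR, with the motif 237 and 297 nt after the stop codon. On the other GENCODE transcript of the gene that holds them, ENST00000276925.7, both lie in the coding sequence. The region of this peak therefore depends on the isoform used.

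GGACU was found in 4 of the 11 member peaks of shFTO (36.4%) and in 4 of the 13 of shNC (30.8%), beside 38.1% of all shFTO peaks and 36.3% of all shNC peaks. The highest member peak, in the coding sequence of MDM4, held none. In MDM2, CDKN1B, CDKN2B and GADD45B, the shorter motif GGAC was also counted on the sense strand, where each GGACU is a GGAC too. The first coding sequence peak of MDM2 held no GGAC in shFTO or shNC, although 60.0% and 66.5% of all windows of its length in shFTO and shNC on this transcript held one. The other 13 peaks of these 4 mRNAs held 1 to 6. The absence of these letters says nothing of other forms of the motif.

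**Figure D1:**
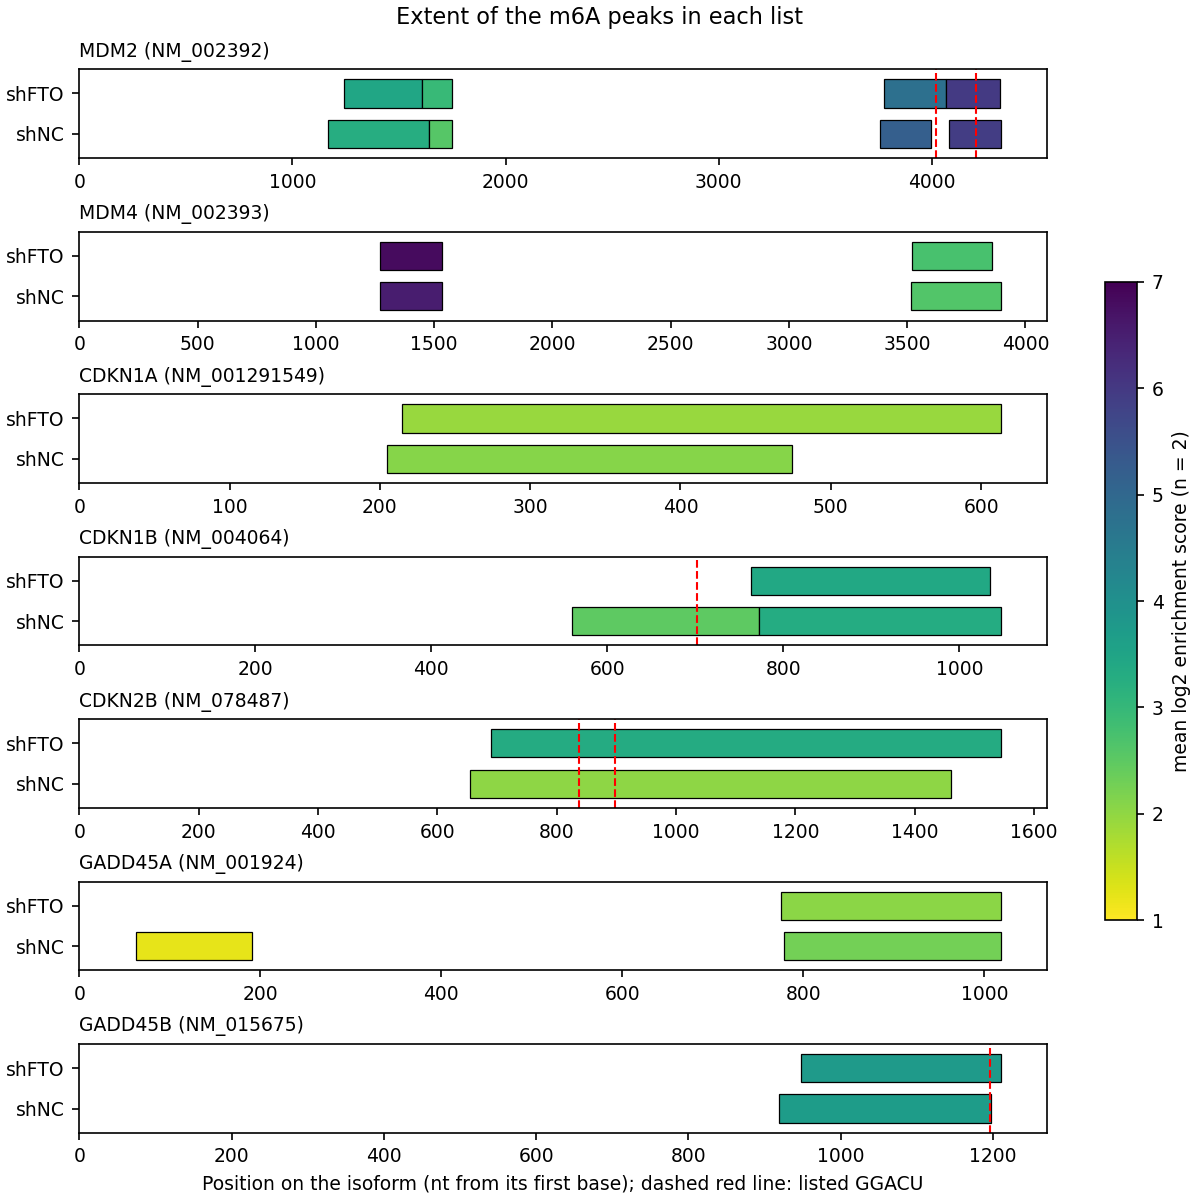
Peaks of the 7 mRNAs with peaks, shFTO above shNC, along the authors' isoform in nucleotides, coloured by the mean log2 enrichment score of 2 replicates, with GGACU sites listed within peaks as dashed lines. The start codon peak of CDKN1B and the 5′UTR peak of GADD45A were listed in shNC alone, and the stretch of the MDM2 3′UTR between the shNC peaks, from 3998 to 4083, was covered in shFTO alone.

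To compare the groups, each peak with a single overlapping partner in the other list was paired with it, and the scores were tested with limma over all 12117 such pairs of 7833 genes, 2 replicates against 2, with Benjamini-Hochberg adjustment. The 2 peaks of a pair were called separately and can differ in extent, as in CDKN1A (399 nt in shFTO and 270 nt in shNC). A ratio therefore does not separate a change in enrichment from a difference in extent. Peaks without exactly 1 partner, such as those listed in 1 group alone, were not tested. Of all pairs, 0 (0%) had an adjusted p under 0.05, and 725 (5.98%) had an unadjusted p under 0.05, 279 of them higher and 446 lower in shFTO (320 higher and 298 lower without shFTO replicate 2). The median log2 ratio of all pairs, shFTO over shNC, was -0.01 with an SD of 0.40. Of the 8 member pairs, which came from 6 genes, 0 had an adjusted or an unadjusted p under 0.05. Their log2 ratios ran between -0.40 and 1.31 with a median of 0.04, and 5 were above 0 and 3 below, while 48.4% of all pairs were above 0. With the replicates taken one by one, both shFTO values lay above both shNC values in 1 member pair, the 3′UTR peak of MDM4 (15.7% of all pairs), and both lay below in 1, a 3′UTR peak of MDM2 (17.7% of all pairs). In the other 6 member pairs the groups overlapped, as they did in 66.6% of all pairs. An exact permutation test of 2 values against 2 cannot give a two-sided p below 0.333, so no single peak could pass by that test.

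MDM2, at chr12:68808172-68850686, carried 4 peaks in each list, more than any other gene of the group. Genes with at least 4 peaks made up 10.0% of the genes of the shFTO list and 11.7% of those of the shNC list. The peaks formed a coding sequence block and a 3′UTR block on NM_002392.

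The highest MDM2 peak was the distal one in the 3′UTR, which holds the GGACU at 4207. It ran over positions 4069 to 4321 in shFTO with log2 scores of 6.07 and 5.90, and over 4083 to 4323 in shNC with 5.77 and 6.09. The groups overlapped, and the means of 5.98 ± 0.12 in shFTO and 5.93 ± 0.22 in shNC (SD, n = 2 each) gave a log2 ratio of 0.05 (SE 0.29, 95% interval -0.61 to 0.72, limma adjusted p = 0.9996). It ranked 158 of 18551 peaks in shFTO and 176 of 19072 in shNC. Without replicate 1 of shFTO or of shNC the ratio was -0.03 or -0.10.

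The adjoining 3′UTR peak of MDM2 was the one member pair in which shFTO lay below shNC in both replicates. It scored 5.02 and 4.58 in shFTO (positions 3778 to 4068), against 5.36 and 5.05 in shNC (3759 to 3998). The groups did not overlap, by a narrow margin. The means were 4.80 ± 0.32 in shFTO and 5.20 ± 0.22 in shNC (SD, n = 2 each), a log2 ratio of -0.40 (SE 0.31, 95% interval -1.10 to 0.30), which did not pass the test (limma adjusted p = 0.952). The boundaries differ as well: the shFTO peak reached as far as the next peak and so took in the GGACU at 4020, while the shNC peaks left a gap there.

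In the MDM2 coding sequence, the peaks of the lists did not match one to one, since the second shFTO peak overlapped the first shNC peak by 33 bp and the second by 108 bp. The first peak scored 3.92 and 3.001 in shFTO (1242 to 1607), against 3.35 and 3.18 in shNC (1169 to 1640), with means of 3.46 ± 0.65 and 3.27 ± 0.12 (SD, n = 2 each). The second scored 2.82 and 3.10 in shFTO (1608 to 1748), against 2.67 and 2.48 in shNC (1641 to 1749), with means of 2.96 ± 0.20 and 2.58 ± 0.13 (SD, n = 2 each). The groups overlapped at the first and did not at the second, where shFTO was above. Under the alternative that pairs peaks sharing at least 50% of the shorter one, the log2 ratios were 0.19 (SE 0.36, limma adjusted p = 0.986) and 0.38 (SE 0.30, limma adjusted p = 0.943).

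MDM4, at chr1:204516406-204558120, held one of the highest peaks of the whole series. Its coding sequence peak (1270 to 1533 of NM_002393 in shFTO and 1272 to 1531 in shNC) scored 7.15 and 6.51 in shFTO, against 6.59 and 6.46 in shNC. It was rank 13 of the 18551 shFTO peaks and rank 34 of the 19072 shNC peaks, and among coding sequence peaks rank 6 of 5952 and rank 14 of 6239. The groups overlapped, since shFTO replicate 2, at 6.51, fell within the range of shNC. The means of 6.83 ± 0.45 in shFTO and 6.53 ± 0.10 in shNC (SD, n = 2 each) gave a log2 ratio of 0.30 (SE 0.32, 95% interval -0.42 to 1.03, limma adjusted p = 0.967), and the ratio was -0.014 without shFTO replicate 1. The difference in rank therefore lies within the spread between replicates.

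The 3′UTR peak of MDM4 (3522 to 3858 in shFTO and 3516 to 3895 in shNC) was much lower, near the list medians of 2.52 in shFTO and 2.55 in shNC. It scored 2.66 and 2.83 in shFTO, against 2.61 and 2.64 in shNC. Both shFTO values were above both shNC values, by 0.12 on the log2 scale between the means of 2.75 ± 0.12 and 2.63 ± 0.02 (SD, n = 2 each), with an SE of 0.28 (95% interval -0.53 to 0.76, limma adjusted p = 0.991). MDM2 and MDM4 thus differed in where the higher peaks lay, the 3′UTR in MDM2 and the coding sequence in MDM4, in every replicate of both groups.

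**Figure D2:**
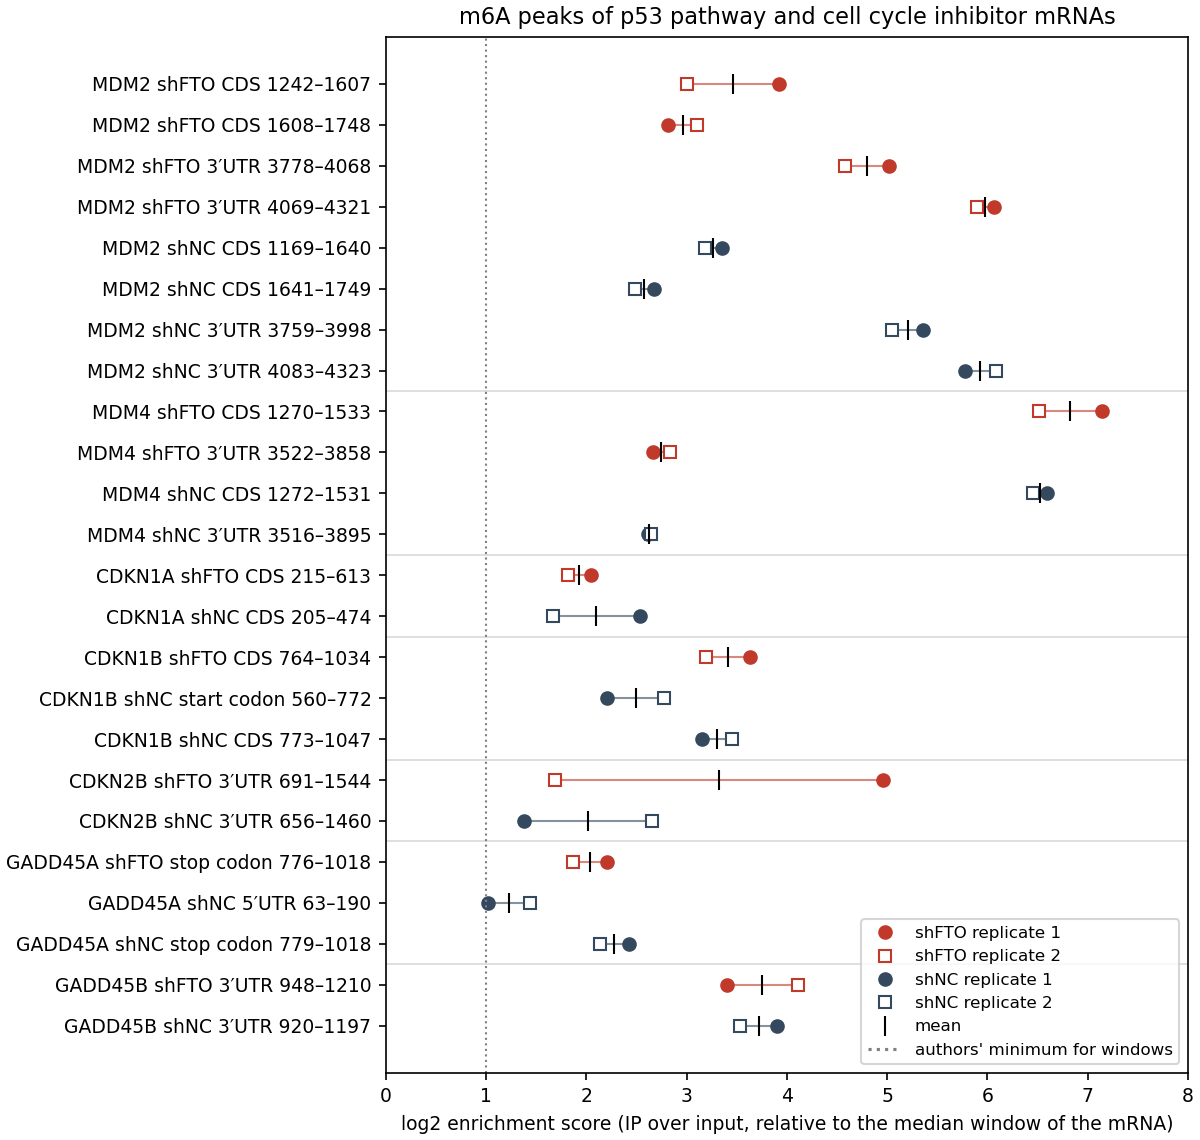
log2 enrichment score of every member peak, with replicate 1 as a filled circle, replicate 2 as an open square, a tick at the mean and a dotted line at the authors' minimum of 1 for windows; shFTO is red and shNC blue, and positions are those on the authors' isoform. The coding sequence peak of MDM4 is the highest, at 6.46 to 7.15, and the CDKN2B peak has the widest gap between replicates in shFTO, at 4.96 and 1.69.

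CDKN1A, at chr6:36676463-36687332, encodes p21, the main cell cycle inhibitor switched on by p53. It had 1 peak in each list, in the coding sequence, at 215 to 613 of NM_001291549 in shFTO and 205 to 474 in shNC. The scores were 2.04 and 1.82 in shFTO, against 2.53 and 1.66 in shNC. The shFTO values lay between the shNC values, so the groups overlapped. The means of 1.93 ± 0.16 in shFTO and 2.10 ± 0.62 in shNC (SD, n = 2 each) gave a log2 ratio of -0.17 (SE 0.35, 95% interval -0.97 to 0.63, limma adjusted p = 0.991). It was 0.27 without shNC replicate 1. The peak was below the median of each list, with 30.0% of the shFTO peaks and 35.0% of the shNC peaks lower, and it held no GGACU.

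CDKN1B, at chr12:12717368-12722369, encodes p27, which holds cells in G1. In shFTO it had 1 peak, in the coding sequence at 764 to 1034 of NM_004064, with scores of 3.63 and 3.19. In shNC it had a coding sequence peak at 773 to 1047 with 3.16 and 3.46, and a second peak at the start codon, at 560 to 772, with 2.21 and 2.78. The coding sequence peaks overlapped between the groups, with means of 3.41 ± 0.31 in shFTO and 3.31 ± 0.21 in shNC (SD, n = 2 each). Where at least 50% of the shorter peak had to be shared, their log2 ratio was 0.11 (SE 0.31, limma adjusted p = 0.995). The start codon peak of shNC, which holds the GGACU at 702, touched the shFTO peak by 9 bp and had no shFTO peak of its own. Since the shFTO list gives no score for this place, the difference there could not be tested.

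CDKN2B, at chr9:22002903-22009313, encodes p15, an inhibitor of CDK4 and CDK6. It had 1 peak in each list, at 691 to 1544 of NM_078487 in shFTO and 656 to 1460 in shNC. At 854 nt in shFTO and 805 nt in shNC, these peaks were wider than 99.9% of the peaks of either list, whose median widths were 256 nt in shFTO and 251 nt in shNC. The scores were 4.96 and 1.69 in shFTO, against 1.38 and 2.65 in shNC. The groups overlapped, since the second shFTO value lay between the shNC values, and the first lay above all others.

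The means of CDKN2B were 3.33 ± 2.31 in shFTO and 2.02 ± 0.90 in shNC (SD, n = 2 each). The log2 ratio of 1.31 (SE 0.88, 95% interval -0.69 to 3.31, limma adjusted p = 0.933) was the largest of the group, and 0.586% of all pairs had a larger absolute ratio, but it did not pass the test. The SD of the shFTO peak was above that of 99.96% of the peaks of its list, and that of the shNC peak above 97.5%. Without shFTO replicate 1 the ratio was -0.33, and without shFTO replicate 2 it was 2.95 with a limma adjusted p of 0.0077, in a fit that assumes the lone shFTO replicate to vary like the others. The sign and the call therefore rest on which shFTO replicate is used.

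**Figure D3:**
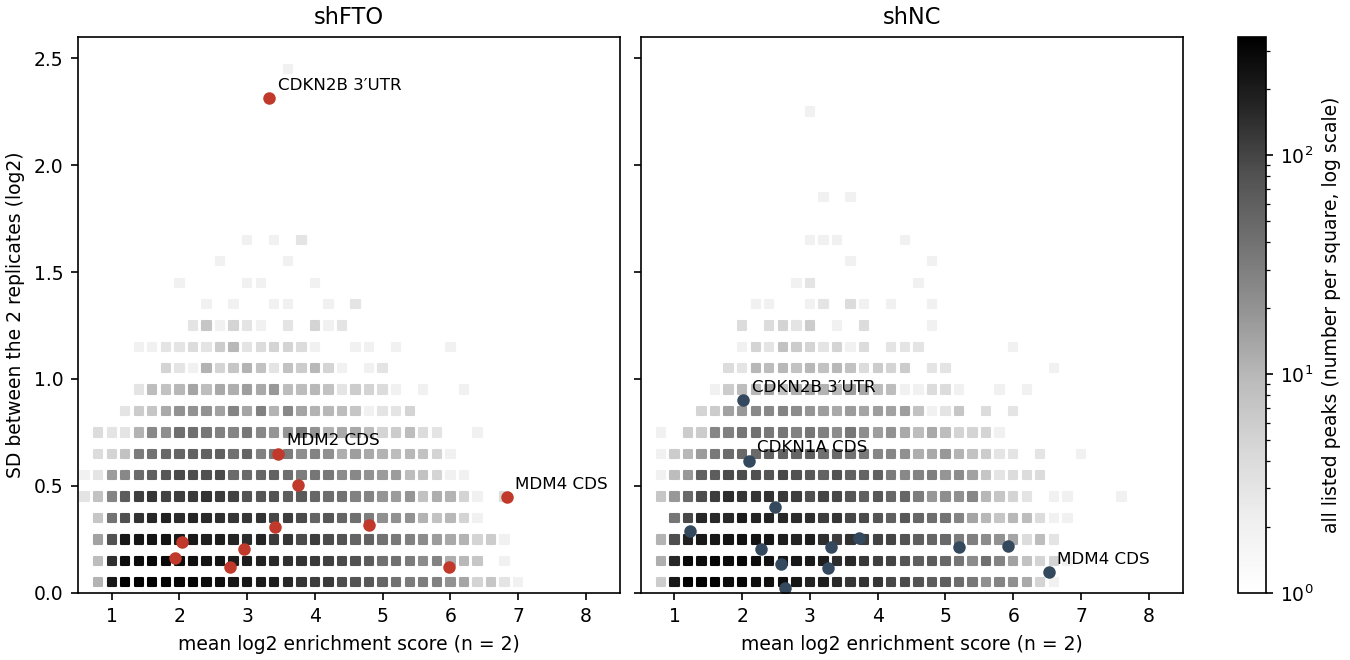
SD between the 2 replicates against the mean log2 enrichment score, with shFTO in the left panel and shNC in the right; grey squares give the number of listed peaks on a log scale and coloured points are the member peaks. The CDKN2B peak, with an SD of 2.31 in shFTO and 0.90 in shNC, stands far above the list medians of 0.22 and 0.23.

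GADD45A and GADD45B encode small stress proteins that bind p21, the PCNA clamp and MAP3K4, and GADD45A is switched on by p53 after DNA damage. GADD45A, at chr1:67685201-67688334, had a stop codon peak in both lists (776 to 1018 of NM_001924 in shFTO and 779 to 1018 in shNC). It scored 2.21 and 1.87 in shFTO, against 2.43 and 2.13 in shNC. The groups overlapped, and the means of 2.04 ± 0.24 in shFTO and 2.28 ± 0.21 in shNC (SD, n = 2 each) gave a log2 ratio of -0.24 (SE 0.30, 95% interval -0.92 to 0.44, limma adjusted p = 0.975). The shNC list held a further GADD45A peak in the 5′UTR, at 63 to 190, with scores of 1.02 and 1.43, close to the authors' minimum of 1 for windows. Only 6.27% of the shNC peaks scored lower, and no shFTO peak was listed there.

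GADD45B, at chr19:2476127-2478257, had 1 peak in each list, in the 3′UTR at 948 to 1210 of NM_015675 in shFTO and 920 to 1197 in shNC. It scored 3.40 and 4.11 in shFTO, against 3.90 and 3.54 in shNC. The shNC values lay between the shFTO values, and the groups overlapped. The means of 3.76 ± 0.51 in shFTO and 3.72 ± 0.26 in shNC (SD, n = 2 each) gave a log2 ratio of 0.04 (SE 0.34, 95% interval -0.73 to 0.81, limma adjusted p = 0.9996). The ratio was -0.32 without shFTO replicate 2 and -0.14 without shNC replicate 2.

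CDKN1C, at chr11:2883218-2885775, and CDKN2A, at chr9:21967752-21995324, had no peak in either list. CDKN2A and CDKN2B are neighbours on chromosome 9, and only CDKN2B was in the lists. Why CDKN1C and CDKN2A had no peak was not tested, and the lists hold neither expression nor gene copy number.

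Across the member peaks, 5 of 11 in shFTO were in the coding sequence, 5 in the 3′UTR and 1 at the stop codon. In shNC, 5 of 13 were in the coding sequence, 5 in the 3′UTR, and 1 each at the stop codon, the start codon and the 5′UTR. Of all shFTO peaks, 32.08% were in the coding sequence, 21.25% in the 3′UTR and 20.02% at the stop codon. A further 16.80% were at the start codon and 6.64% in the 5′UTR. In the same order, the shares of all shNC peaks were 32.71%, 21.81%, 19.38%, 16.58% and 6.56%. MDM2 alone gave 4 member peaks in each list, so these peaks are not separate observations, and the difference in shares was not tested. Of the member peaks, 9 of 11 in shFTO and 8 of 13 in shNC scored above the median of their list. The 3 highest member peaks of each list were those of the MDM4 coding sequence and the MDM2 3′UTR.

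**Figure D4:**
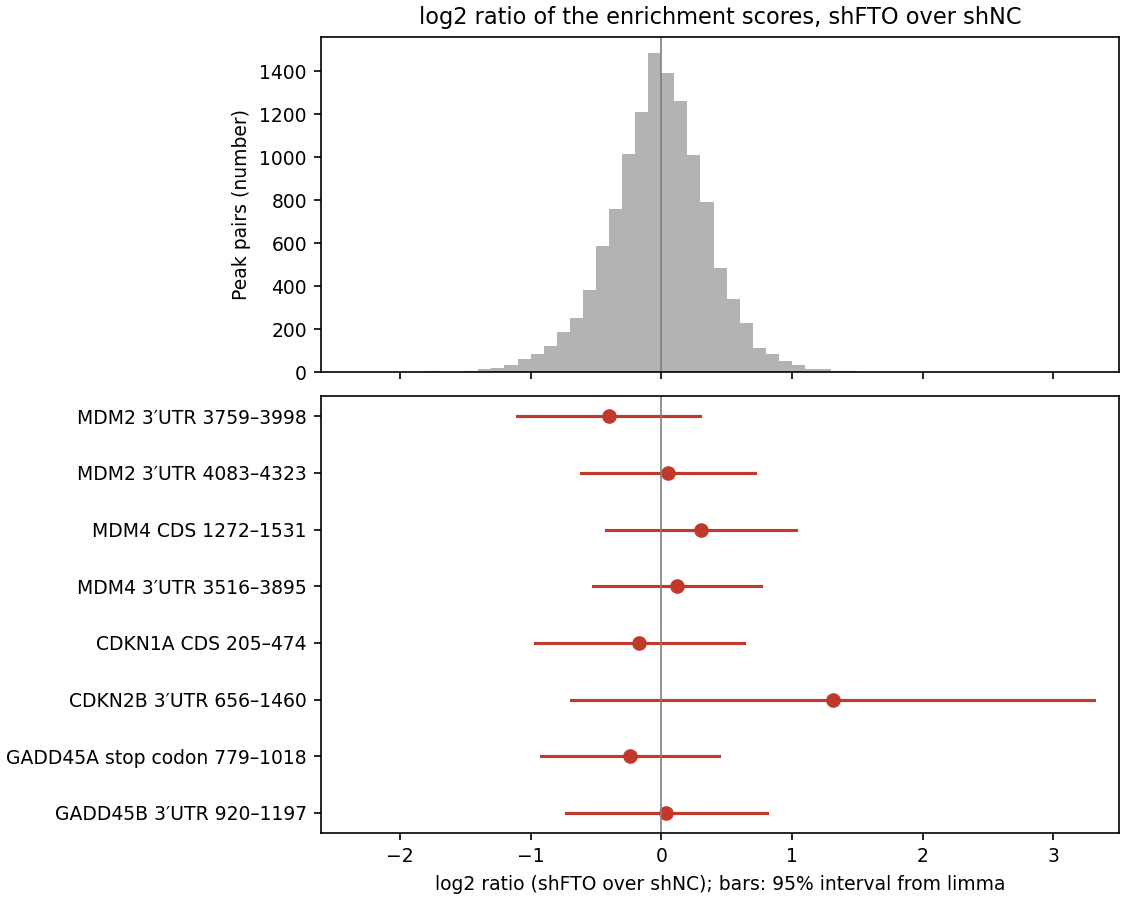
Top, number of tested peak pairs by their log2 ratio, shFTO over shNC, over all 12117 pairs; bottom, log2 ratio of the 8 member pairs with the 95% interval from limma, named by region and position in shNC. Each interval spans 0, and the CDKN2B interval, -0.69 to 3.31, is the widest.

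The other genes of the pathway were read in the same way, from 3 lists chosen with earlier results of these data known. They hold 29 regulators of p53, 35 targets of p53 and 19 other genes of cell cycle control, not all of them inhibitors. Of these 83 genes, 59 had peaks in both lists and 16 in neither. They gave 84 tested pairs with a median log2 ratio of 0.04. Of these pairs 2 were higher and 2 lower in shFTO at an unadjusted p under 0.05 (4.76%, beside 5.98% of all pairs), and 0 passed after adjustment, the lowest limma adjusted p being 0.657. All 4 were among the 35 pairs of the targets of p53 (11.4%), with 0 among the 38 pairs of the regulators and 0 among the 11 of the third list.

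SESN1, a sestrin induced by p53 that restrains mTORC1, had a start codon peak of 2.65 and 1.996 in shFTO, against 3.56 and 3.53 in shNC, and a log2 ratio of -1.22 (SE 0.32, limma adjusted p = 0.657). TP53INP1, a stress protein that promotes p53 activity, had a 5′UTR peak of 2.07 and 2.35 in shFTO, against 2.89 and 3.51 in shNC, and a log2 ratio of -0.99 (SE 0.32, limma adjusted p = 0.714). At both of these peaks each shFTO value lay below each shNC value. PIDD1, a death domain protein that activates caspase-2, had a stop codon peak of 4.15 and 4.17 in shFTO, against 3.74 and 1.75 in shNC, and a log2 ratio of 1.41 (SE 0.55, limma adjusted p = 0.767). XPC, which recognises damaged DNA for nucleotide excision repair, had a peak over the start codon of 3.09 and 3.43 in shFTO, against 2.57 and 2.52 in shNC, and a log2 ratio of 0.71 (SE 0.29, limma adjusted p = 0.815). At these PIDD1 and XPC peaks each shFTO value lay above each shNC value, in PIDD1 with a wide gap between the shNC replicates. The other tested XPC peak, in the coding sequence, went the other way. It scored 3.18 and 3.27 in shFTO, against 3.70 and 3.57 in shNC, with a log2 ratio of -0.41 (SE 0.28, limma adjusted p = 0.934). None of these pairs passed after adjustment over all pairs.

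Of the regulators of p53, 23 of 29 had peaks in both lists, and the 38 tested pairs had a median log2 ratio of -0.00. By the mean over both lists, the highest peaks were in USP10, a deubiquitinase that stabilises p53, with 6.80 ± 0.38 in shFTO and 6.66 ± 0.44 in shNC (SD, n = 2 each), and in EP300, an acetyltransferase that acts on p53, with 5.35 ± 0.13 in shFTO and 5.42 ± 0.07 in shNC (SD, n = 2 each). The largest ratios were 0.91 in the 3′UTR of TRIM24 and -0.70 in the coding sequence of RFWD3, both ubiquitin ligases that act on p53, and neither passed the test (limma adjusted p = 0.911 and 0.899). Of the targets, 27 of 35 had peaks in both lists, with a median log2 ratio of 0.07 over 35 pairs. By the mean over both lists, the highest were the 3′UTR peak of THBS1, an inhibitor of angiogenesis, with 6.01 ± 0.35 in shFTO and 6.20 ± 0.12 in shNC (SD, n = 2 each), and the highest peak of TNFRSF10B, a death receptor, with mean scores of 5.48 in shFTO and 5.31 in shNC.

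Of the 19 other genes of cell cycle control, 9 had peaks in both lists, 4 in shNC only, 0 in shFTO only and 6 in neither. Over the 10076 genes with a peak in at least 1 list, 7.76% were in shFTO only and 5.97% in shNC only, and 8692 genes were in both. These shares leave out genes in neither list, whereas the 19 include them. The genes found in 1 list were named after their values were seen. Of the regulators, PPP1R13B, which encodes a p53-binding protein, was in shFTO only. Of the targets, BTG2, an antiproliferative gene, was in shFTO only, and CCNG2 and APAF1, which encode a cyclin G and the core protein of the apoptosome, were in shNC only. The 4 of the third list were CDKN2C, another CDK4 and CDK6 inhibitor of the family of p15, with a mean score of 2.16, CDKN3 with 1.39, WEE1, the kinase that holds back entry into mitosis, with 2.32 and 1.92 for its peaks, and SKP2 with 1.75. SKP2 is not an inhibitor itself but targets p27 for degradation. The mean scores of these 4 genes were below the shNC median of 2.55, although replicate 1 of the WEE1 start codon peak was at 2.85. Those of CCNG2 (2.81) and APAF1 (2.75) were above it. In shFTO, with a list median of 2.52, the peaks of PPP1R13B averaged 3.02 and 2.64, and those of BTG2 2.44 and 1.57. The 11 tested pairs of the third list had a median log2 ratio of 0.21 and 0 at an unadjusted p under 0.05 in limma. By the mean over both lists, its highest peaks were in BTG1, an antiproliferative gene, with 5.24 ± 0.21 in shFTO and 5.03 ± 0.43 in shNC (SD, n = 2 each), and in MAP3K4, the kinase that GADD45 proteins bind. The 3 tested MAP3K4 peaks were all labelled 5′UTR on the authors' isoform, a label not checked on other transcripts. They averaged 5.33 ± 0.03, 4.39 ± 0.70 and 5.27 ± 0.09 in shFTO, against 4.82 ± 0.05, 4.36 ± 0.28 and 4.98 ± 0.32 in shNC (SD, n = 2 each). The groups did not overlap at the first, where shFTO was above with a log2 ratio of 0.51 that did not pass the test (limma adjusted p = 0.881), and overlapped at the other 2. The largest ratio of this list, 0.60, was in the coding sequence of CDKN2AIP, which encodes a protein that binds ARF (limma adjusted p = 0.887).

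**Figure D5:**
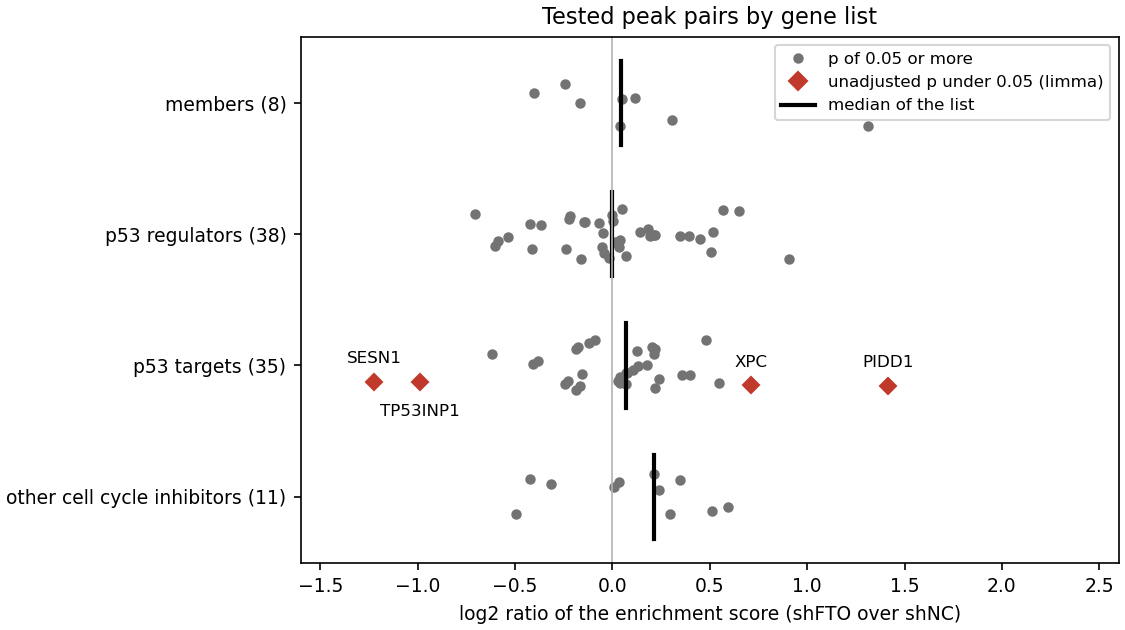
log2 ratio, shFTO over shNC, of each tested pair of the member genes and of the 3 pathway lists, with the number of pairs in brackets and a bar at each list's median. The 4 pairs at an unadjusted p under 0.05 in limma (red diamonds) are SESN1, TP53INP1, XPC and PIDD1. All are among the 35 pairs of the targets of p53 (11.4%, beside 5.98% of all pairs). The list medians lie between -0.00 and 0.21.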

How the data were processed

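m6A-seq of Mel624 cells was taken as deposited: 1 peak list per group, with a log2 enrichment score for each of 2 replicates. The authors removed adapters with cutadapt, used TopHat2 2.0.14 for alignment to hg38, and scanned the longest RefSeq isoform of each gene with 100 bp windows moved by 10 bp. Windows passed at an FDR under 0.01 by Fisher exact test of IP against input and a log2 score of at least 1, and overlapping windows were merged. The sources do not say how replicates were merged into a single list. Library size does not enter the score, and the lists hold no counts, so depth is unknown and only the 2 replicates show the precision.

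Peaks on one isoform that overlapped by at least 1 bp, each with exactly 1 partner, were compared with limma 3.58.1 (lmFit and eBayes, group as the only term) in R 4.3.3, on the log2 scores without further normalization, with Benjamini-Hochberg adjustment over all pairs. The fit was also run on simulated data, and no result given here rests on that run. Tables and figures were made in Python 3.11.15 with pandas 2.3.3, numpy 2.4.6, matplotlib 3.10.9 and scipy 1.17.1. Alternatives were a replicate block, each replicate left out in turn, centring, pairs sharing at least 50% of the shorter peak, joined peaks, log2(score + 1), a log2 score of at least 2, and a mean-dependent prior. Replicates with the same number are not otherwise linked.

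The members and the pathway lists were chosen with earlier results of these data known. All 9 members were named, and from each pathway list the genes at an unadjusted p under 0.05, the 2 with the highest mean score and the 2 with the largest absolute ratio. Symbols were matched, and genes located, through RefSeq's GRCh38 gene table. GGACU sites listed by the authors were placed on GENCODE version 44 transcripts by the match of all listed sites of an mRNA at a common shift of at most 150 nt, which left 1 genomic place for each. MDM4, CDKN1A and GADD45A list no GGACU and were not placed. The level of FTO after knockdown was not analysed here.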

Additional observations from a re-analysis of the deposited data

How the results depend on the processing

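Under the alternatives run, no member pair had an adjusted p under 0.05 in limma, except CDKN2B without shFTO replicate 2. Over the 8 member pairs, 78 of 86 alternative values kept their direction and side of the threshold. The 7 that turned came from leaving out 1 replicate. Without shFTO replicate 1, CDKN2B was -0.33, the distal MDM2 3′UTR peak -0.03 and the MDM4 coding sequence peak -0.014. Without shFTO replicate 2, GADD45B was -0.32, while CDKN2B was 2.95. Without shNC replicate 1, CDKN1A was 0.27 and the distal MDM2 3′UTR peak -0.10, and without shNC replicate 2, GADD45B was -0.14. The cause was not tested. With 1 replicate left out, the lowest and highest ratios were -0.60 and 0.27 for CDKN1A, -0.32 and 0.40 for GADD45B, -0.10 and 0.21 for the distal MDM2 peak, and -0.014 and 0.62 for the MDM4 coding sequence peak. The median log2 ratio of the member pairs, 0.04, ran between -0.16 and 0.16 with 1 replicate left out, so its sign is not settled.

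Over all pairs, the count at an adjusted p under 0.05 was 0, and between 0 and 11 with 1 replicate left out (7 without shFTO replicate 1, 11 without shFTO replicate 2 and 6 without shNC replicate 2). The count at an unadjusted p under 0.05 was 725, and between 618 and 924 with 1 replicate left out. Lower calls outnumbered higher ones under each alternative except without shFTO replicate 2 (320 higher and 298 lower). With the replicate number as a block, these counts were 0 and 502, and no member call changed. Deviations of same-numbered replicates correlated at r = -0.27, and a crossed replicate block, added after seeing the data, gave 13 and 1149, with 0 and 1 of the 8 member pairs among them.

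Members with peaks in both lists were 7, or 6 at a mean log2 score of at least 2 in each list; for the other pathway genes these counts were 59 and 48. With 2 replicates, the median SE of 0.31 leaves small ratios undetectable. Without counts, a peak that missed the thresholds cannot be told apart from an mRNA too low to be read.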
